A study of Mus musculus with 38 samples.

Results

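The immediate early genes are a set of genes whose transcription starts within minutes of a stimulus, without the need for new protein. Of 39 such genes listed for this work, 37 had a probe on the array, out of 16593 genes with a probe, and Fosl2 and Dusp5 had none. Each gene was read from 1 probe, that of highest mean over all 38 arrays, and 11 of the 37 had more than 1 probe to choose from. Cochlear explants of C57BL/6 mice 3 to 5 days old were left to attach to the dish, then exposed to kainate at 0.4 mM for 2 h or left untreated (CTRL), and sampled 5, 24 or 72 h after that treatment by dissection into the spiral ganglion (SG), which holds the cell bodies of the auditory neurons, and the organ of Corti (OC), which holds the hair cells. The SG arrays comprised 4 kainate and 4 control explants at 5 h, 3 and 2 at 24 h, 3 and 3 at 72 h. The OC arrays comprised 4 kainate and 3 control explants at 5 h, 2 and 4 at 24 h, 3 and 3 at 72 h. Each explant was split into SG and OC, and arrays of one number, treatment and time were taken as its 2 parts. Kainate and control explants were different explants, and the methods do not say whether some shared an animal. All explants, controls included, had been cut from the ear and kept in culture, so each level below is that of cultured tissue and no uncultured cochlea was set beside it.

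Kainate is an agonist of glutamate receptors, and at high dose it injures the terminals of auditory neurons on the inner hair cells. Calcium entry and growth factor signals act through CREB and the ternary complex factors bound with SRF to switch on the first transcription factors, the AP-1 proteins (Fos, Jun and ATF families), the EGR zinc fingers, the NR4A nuclear receptors and several KLF factors. These factors then drive a later set of effector genes. The dual-specificity phosphatases (Dusp genes) dephosphorylate the MAP kinases and limit the response, and Zfp36 and Btg2 act on mRNA decay. Tissue dissection is itself a known inducer of these genes.

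The promoters of members on which the results turn are printed with the short DNA words for which these pathways are known. The windows were taken from RefSeq (GRCm38.p6) and run from 250 bases before to 50 bases after an annotated start. Capitals mark the CRE core TGACG, to which CREB family proteins bind, on either strand (CGTCA), the EGR site GCGNGGGCG on either strand, and the serum response element. Fosb is shown because it alone passed the kainate threshold, Fos for the largest tissue difference, Egr2 for the largest fall in culture and Atf3 for the largest tissue difference in the course of culture. The windows are chr7:19309996-19310295 on the minus strand (Fosb), chr12:85473640-85473939 on the plus strand (Fos), chr10:67537680-67537979 on the plus strand (Egr2, 1 of 5 annotated windows) and chr1:191183284-191183583 on the minus strand (Atf3).
Fosb: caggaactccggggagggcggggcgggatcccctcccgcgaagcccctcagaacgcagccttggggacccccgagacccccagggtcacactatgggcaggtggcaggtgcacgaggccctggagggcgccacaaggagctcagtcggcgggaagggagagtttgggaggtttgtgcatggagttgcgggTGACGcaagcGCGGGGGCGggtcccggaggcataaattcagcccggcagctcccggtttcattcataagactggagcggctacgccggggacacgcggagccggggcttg
Fos: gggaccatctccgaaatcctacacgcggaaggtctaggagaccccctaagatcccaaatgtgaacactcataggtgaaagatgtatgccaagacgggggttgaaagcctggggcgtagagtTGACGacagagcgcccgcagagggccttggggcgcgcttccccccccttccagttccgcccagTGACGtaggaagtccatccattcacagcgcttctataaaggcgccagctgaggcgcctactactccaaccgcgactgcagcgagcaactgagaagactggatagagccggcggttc
Egr2: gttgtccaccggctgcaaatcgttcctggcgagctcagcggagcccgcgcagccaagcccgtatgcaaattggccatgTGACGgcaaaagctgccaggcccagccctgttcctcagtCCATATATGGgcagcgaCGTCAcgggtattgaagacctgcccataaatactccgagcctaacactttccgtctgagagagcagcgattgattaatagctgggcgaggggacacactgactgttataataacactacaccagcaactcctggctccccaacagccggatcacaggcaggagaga
Atf3: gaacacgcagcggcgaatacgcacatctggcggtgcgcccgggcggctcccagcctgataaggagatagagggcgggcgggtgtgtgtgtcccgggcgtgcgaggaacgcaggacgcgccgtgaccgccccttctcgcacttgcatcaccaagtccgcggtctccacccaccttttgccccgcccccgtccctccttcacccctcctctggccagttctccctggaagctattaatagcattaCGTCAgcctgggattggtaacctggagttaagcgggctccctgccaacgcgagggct
A window was found for 28 of the 37 members. The CRE core lay in the window of 19 of these 28 (67.9%), against 23.0% of all 27025 genes with a window, a gene counting once where it has several (4 of the 28 do). The EGR site lay in 11 members (39.3%), among them Fosb, Klf4 and Dusp2, against 6.27% of genes. The serum response element lay in 2 (Egr2 and Zfp36) and the AP-1 site TGANTCA, read on either strand, in 1 (Csrnp1), against 1.81% and 8.97% of genes. These motifs can share bases at their ends, and a match says only that the letters are there. A site outside the window was not looked for, so an unmarked window does not mean that the gene lacks the site.

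The array values are log2 of the normalized probe signal, so that 1 unit is a doubling, and a probe was taken as above background on an array where the authors' detection p-value was under 0.01. By this measure 17 members were above background on all 38 arrays, 12 on some and 8 on none. The 17 were Fos, Jun, Junb, Jund, Egr1, Egr2, Klf4, Klf6, Dusp1, Dusp6, Csrnp1, Ier3, Gadd45b, Gadd45g, Zfp36, Homer1 and Nptx2. The 8 that were on no array were Fosl1, Egr4, Nr4a1, Nr4a3, Klf10, Myc, Ier5 and Btg2, and their values are bounds. Among the 12 between, Nr4a2 was above background on 35 arrays, Maff on 32, Dusp4 on 31, Atf3 on 28, Klf2 on 25, Dusp2 on 22, Fosb on 20, Rgs2 on 18, Npas4 on 12, Arc on 12, Ier2 on 8 and Egr3 on 1.

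**Figure D1:**
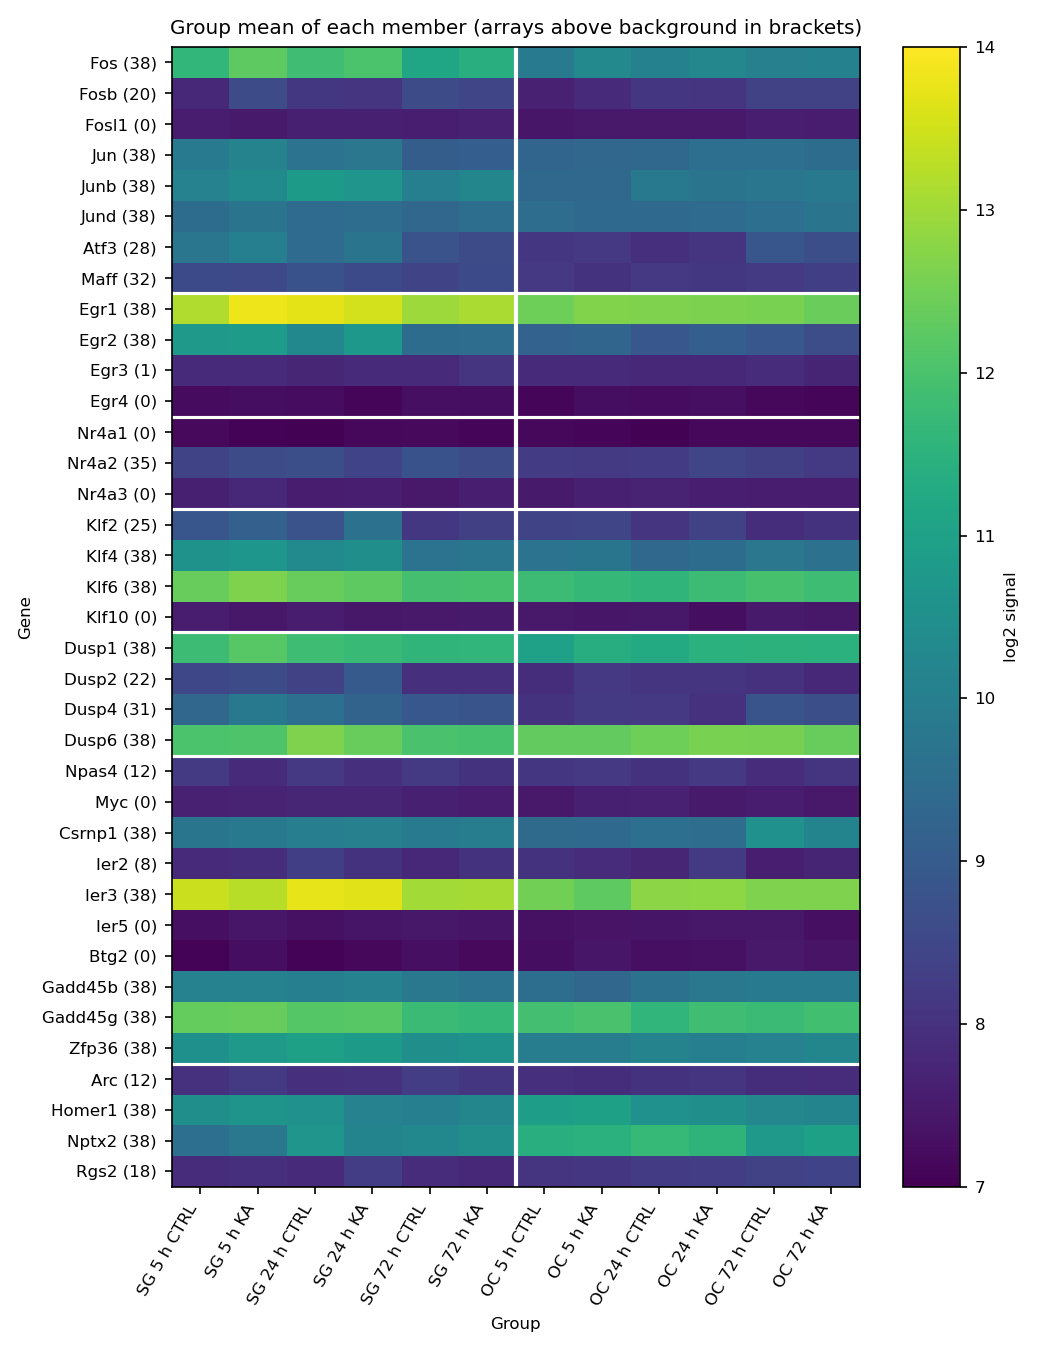
Mean log2 signal of each of the 37 members in the 12 groups of tissue, time and treatment, with the number of arrays above background in brackets. The 8 members that were above background on no array form dim rows, and Fos, Egr2, Atf3 and Dusp4 are brighter in the SG columns at 5 h and 24 h than in the OC columns. Colours compare groups within a row, since probes differ in brightness.

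Across the series, 10043 to 12171 of 25697 probes were above background on an array (median 11180). The dissection was checked on markers. Hair cell markers averaged 8.73 to 9.45 on SG arrays and 10.19 to 10.61 on OC arrays, and 8 of 10 were lower in SG. Of 14 neuron markers, 8 were higher and 2 lower in SG, and Nefl and Snap25 were above background on no SG array of the 5 h groups. Mean log2 levels of the 14 in controls, SG against OC, were 9.91 against 9.02 (5 h), 9.0 against 8.87 (24 h) and 8.73 against 8.8 (72 h). Their summed signal gave another picture. The 5 h ranges overlapped (SG 25200 to 33300, OC 32700 to 34500). Later control sums were lower in SG: 15200 to 23100 against 29900 to 38400 (24 h), then 14400 to 20700 against 34500 to 35700 (72 h). SG 24 h CTRL replicate 2 had the highest hair cell level of the SG arrays, 9.45, and it is 1 of only 2 SG controls at 24 h, so results that use them are also given without it. The tissues are mixtures, so that fewer cells of a type and less RNA per cell cannot be told apart. The study's clustering plot colours the arrays in 5 batches of 7 to 8 arrays (blue, black, green, pink and purple), and these are the batches used here.

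At 5 h after treatment the question was which immediate early genes differed in SG after kainate. Fosb, an AP-1 subunit that pairs with Jun proteins, was higher after kainate, the only one of the 37 members past the study's threshold of an unadjusted p under 0.005. Over all probes 0.389% passed. Fosb read 7.75, 7.57, 8.10 and 7.73 on the control arrays, none of them above background. After kainate it read 8.77, 8.90, 8.30 and 8.57, all 4 above background. Every kainate array was above every control array, and because the controls were not well above background the difference is given as at least 1.44-fold, the brighter group's mean against the higher of the dimmer probe and the lowest signal above background on each array. In the limma fit the log2 difference was 0.84 (SE 0.18), with an unadjusted p of 5.205e-05 and an adjusted p of 0.1127 over all probes, so it did not pass an adjusted p of 0.05. An exact two-sided permutation test of the 4 and 4 arrays gave p = 0.0286, the smallest it allows. At 5 h, arrays with the same number deviated from their group means together in 7 of 7 pairs, and with the number as a block the same difference had an adjusted p of 0.0386. It was 0.50 within the green batch (1 kainate and 3 control arrays) and 1.02 within the purple batch (1 and 1), and the p stayed under 0.005 in all 17 alternatives (adjusted p 0.0386 to 0.913).

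Fos itself, the partner of Jun in the classical AP-1 dimer, did not pass. On the SG control arrays at 5 h it read 11.67, 11.68, 11.71 and 11.50, a narrow range. After kainate it read 12.51, 13.20, 11.94 and 11.45, so that 3 explants lay above all controls and replicate 4 below them. The log2 difference was 0.64 (SE 0.39), with an unadjusted limma p of 0.1136 (exact permutation p = 0.143). In other fits the unadjusted limma p ran from 0.0105, with the number as a block, to 0.423, and none passed 0.005. With batch as a block it was 0.0382. Without kainate replicate 4 the difference was 0.91 and still did not pass 0.005 (unadjusted limma p of 0.0331). The other 3 kainate values were spread from 11.94 to 13.20. Without kainate replicate 2, the highest, the difference was 0.33 (unadjusted limma p of 0.423). Egr1, a zinc finger factor induced by growth factors and depolarisation, read 12.90, 13.07, 13.27 and 13.45 in controls and 14.35, 14.52, 13.58 and 12.87 after kainate. Again replicates 1 to 3 lay above all controls and replicate 4 below, and the difference of 0.66 (SE 0.32) had an unadjusted limma p of 0.0477 (exact permutation p = 0.2). Without kainate replicate 4 the Egr1 difference was 0.97 and passed 0.005. The difference rests as well on kainate replicates 1 and 2, the highest at 14.35 and 14.52, and is lower without either.

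**Figure D2:**
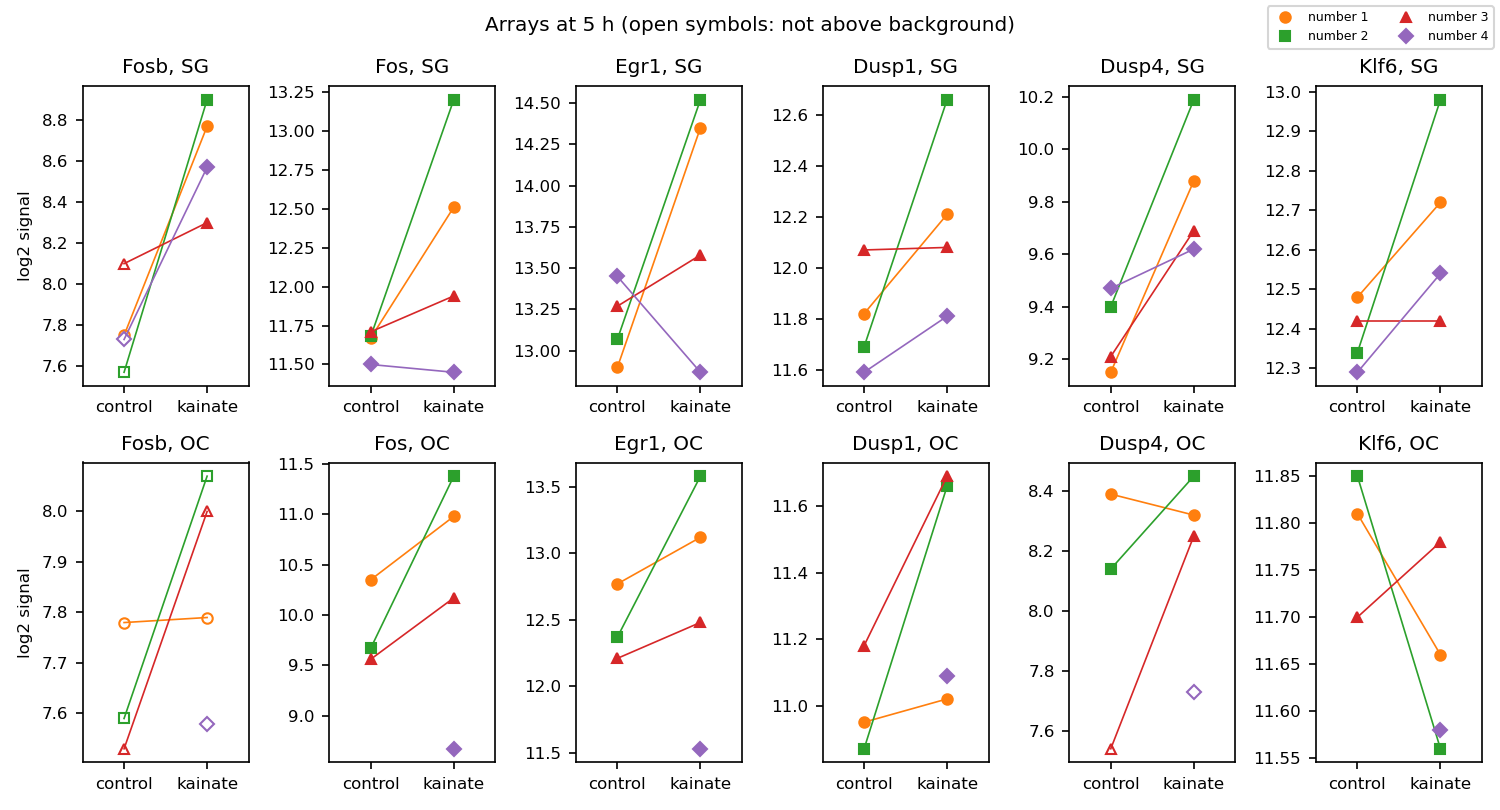
Log2 signal on each array at 5 h, in SG and OC, control beside kainate. The genes are Fos and the members with an unadjusted limma p under 0.05 in SG, apart from Btg2, which was above background on no array. Open symbols are arrays not above background and lines join arrays of the same number, and all 4 Fosb kainate arrays of SG (8.30 to 8.90) lie above the controls (7.57 to 8.10).

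The phosphatases that shut off MAP kinases had means above control at 5 h in SG, without passing 0.005. Dusp4, a nuclear phosphatase of ERK and JNK, read 9.15, 9.40, 9.21 and 9.47 in controls and 9.88, 10.19, 9.69 and 9.62 after kainate. The groups did not overlap, with a difference of 0.53 (SE 0.22) and an unadjusted limma p of 0.0203 (exact permutation p = 0.0286). Dusp1, another nuclear MAP kinase phosphatase, read 11.82, 11.69, 12.07 and 11.59 in controls and 12.21, 12.66, 12.08 and 11.81 after kainate, a difference of 0.40 (SE 0.18, unadjusted limma p of 0.03589, exact permutation p = 0.114). Neither passed 0.005, although Dusp1 did (difference 0.43, unadjusted p of 0.00422) with batch as a block, and Dusp4 did where the 2 groups were fitted alone. Klf6, a zinc finger transcription factor, read 12.48, 12.34, 12.42 and 12.29 in controls and 12.72, 12.98, 12.42 and 12.54 after kainate, a difference of 0.28 (SE 0.14, unadjusted limma p of 0.04752). Btg2, not above background on any array, differed by 0.18 (unadjusted limma p of 0.03679).

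Counted together, 6 of 37 members had an unadjusted p under 0.05, each with a higher mean after kainate (Fosb, Egr1, Klf6, Dusp1, Dusp4 and Btg2), against 3.28% of all probes in either direction. The difference was above 0 in 30 of 37 members with a median of 0.12 on the log2 scale, while 51.3% of all probes were above 0 with a median of 0.0029. Among the 29 members above background on at least 1 array it was above 0 in 25. The count ranged from 27 to 30 of 37 when any 1 array of the 2 groups was left out. Fosb, Jun and Dusp4 had every kainate array above every control array (1.06% of all probes), and Npas4, a neuronal activity-dependent factor, had every kainate array below (0.93% of probes), with a fitted difference of −0.31 (at least 1.09-fold lower, unadjusted limma p of 0.05878) between levels at or near background. By family, the median difference was 0.22 in the AP-1 family (6 of 8 above 0), 0.24 in the phosphatases (4 of 4), 0.17 in the KLF factors (3 of 4), 0.16 in the NR4A receptors (2 of 3), 0.05 in the EGR factors (3 of 4), 0.17 in the neuronal effectors (4 of 4) and 0.06 in the remaining regulators (8 of 10).

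The explants of one number set side by side showed which members differed one way in each pair. In SG, 9 of 37 members were higher after kainate in all 4 pairs (Fosb, Jun, Jund, Atf3, Dusp1, Dusp4, Csrnp1, Zfp36 and Btg2), against 6.67% of all probes, and 2 were lower in all 4 (Fosl1 and Npas4), against 6.1%. Btg2 and Fosl1 were above background on no array, and Zfp36 was higher by only 0.0049 in the pair of number 4. For Fos the SG pairs differed by 0.84, 1.52, 0.23 and −0.04, and for Egr1 by 1.45, 1.45, 0.31 and −0.58. In both genes number 4 was the only pair with the kainate value below its control, in Fos by just 0.04. Neuron markers moved in the other direction in the same SG arrays. None of 14 had a difference above 0, their median was −0.30 and 4 were lower at p under 0.005, with summed signals of 25200 to 33300 in controls and 23100 to 26200 after kainate. Their part in the members' values was not tested.

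In OC at 5 h no member passed the kainate threshold, and 0.136% of all probes did. Of the 37 members, 24 had a difference above 0, with a median of 0.05, against 50.2% of all probes. The count ranged from 18 to 26 without 1 array. Fos read 10.35, 9.67 and 9.56 in controls and 10.98, 11.38, 10.17 and 8.67 after kainate, so that the groups overlapped through replicate 4, the lowest of all. The difference was 0.44 (SE 0.42, unadjusted limma p of 0.3063, exact permutation p = 0.571). With the number as a block, which drops replicate 4 because it has no control of its number, the 3 pairs differed by 0.63, 1.71 and 0.61 and Fos passed the threshold (0.98, unadjusted limma p of 0.00128, adjusted p = 1). Egr1 read 12.77, 12.37 and 12.21 in controls and 13.12, 13.58, 12.48 and 11.53 after kainate. For both genes the kainate explants had the same order in the 2 tissues, number 2 highest, then 1, 3 and 4. In each tissue these arrays lay in the pink, purple, green and blue batches, in that order. The order of explants and that of batches cannot be told apart. Fosb in OC was above background on none of the 7 arrays, with 7.53 to 7.78 in controls and 7.58 to 8.07 after kainate. Its kainate difference was 0.62 larger in SG than in OC (SE 0.27, unadjusted p of 0.02661 for limma's interaction), which did not pass 0.005. In all 3 OC pairs, 8 of 37 members were higher (Fos, Fosb, Egr1, Egr2, Dusp1, Dusp2, Homer1 and Nptx2), against 11.8% of all probes, and 1, Jund, was lower, against 12.0%.

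At the later times the members did not pass the kainate threshold in either tissue, by limma at an unadjusted p under 0.005. Of all probes in SG, 1.1% passed at 24 h and 0.179% at 72 h. Of all probes in OC, 0.272% passed at 24 h and 0.257% at 72 h. An unadjusted p under 0.05 was reached by 3 of 37 members in SG at 24 h, a share near the 7.0% of all probes, by Ier2 in OC at 24 h (3.44% of probes; at least 1.08-fold, fitted 0.43, unadjusted limma p of 0.01263, 1 of 6 arrays above background), and by no member at 72 h. The 3 were Klf2, a factor of endothelium and leukocytes, Dusp2, a phosphatase of lymphoid and myeloid cells, and Rgs2, an inhibitor of Gq signalling. Klf2 read 8.27 and 9.30 in controls and 9.14, 9.98 and 9.71 after kainate, a difference of 0.83 (unadjusted limma p of 0.01773). Dusp2 read 7.81 and 8.91 in controls, the first not above background, and 8.81, 8.90 and 9.24 after kainate (0.63, unadjusted limma p of 0.02402). Rgs2 read 7.66 and 8.06 in controls, neither above background, and 8.22, 8.21 and 8.37 after kainate, at least 1.11-fold (unadjusted limma p of 0.01519). At 24 h in SG, Rgs2 and Egr3 had every kainate array above every control array, as did 10.9% of all probes, and Nr4a2, Klf6 and Homer1 had every kainate array below, as did 11.9%. The exact permutation test cannot go below p = 0.2 with 3 and 2 arrays. Without control replicate 3, all 3 passed 0.005 (Klf2 1.34, Dusp2 1.18 and Rgs2 0.61), and the comparison then rests on 1 control array, the one with the high hair cell level, which is assumed to vary like the other groups. Without control replicate 2 none of the 37 passed. Of 11 macrophage and leukocyte markers 10 had a difference above 0 in SG at 24 h, with a median of 1.10 and summed signals of 3080 to 7100 in controls and 6860 to 17700 after kainate, and Ptprc was above background on no array of either group. Without control replicate 2 it was 9 of 11 with a median of 0.51. The part of these cells was not tested. No batch held both a kainate and a control array of SG at 24 h, so no within-batch value can be given there.

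Fosb did not pass the kainate threshold at the later times. In SG at 24 h it read 7.99 and 8.27 in controls and 7.86, 8.49 and 7.89 after kainate, with 1 array above background in each group. The kainate difference at 24 h was 0.89 lower than at 5 h (SE 0.29, unadjusted limma p of 0.004806, adjusted p = 0.5552), and 0.895% of probes passed that comparison at 0.005. With each of 13 arrays left out in turn it passed 0.005 in 3 cases, and without SG 24 h CTRL replicate 2 it was −1.03 (unadjusted limma p of 0.005765). At 72 h it read 9.13, 8.67 and 7.99 in controls and 8.59, 8.67 and 8.13 after kainate, overlapping ranges. Over all members, the kainate difference was above 0 in 18 of 37 in SG at 24 h (15 without control replicate 2, 23 without replicate 3) and in 22 at 72 h (median 0.02). The OC counts were 24 of 37 at 24 h and 12 at 72 h (median −0.03). Over all probes, 47.7% at 24 h and 49.3% at 72 h were above 0 in SG, and 48.3% and 50.5% in OC.

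**Figure D3:**
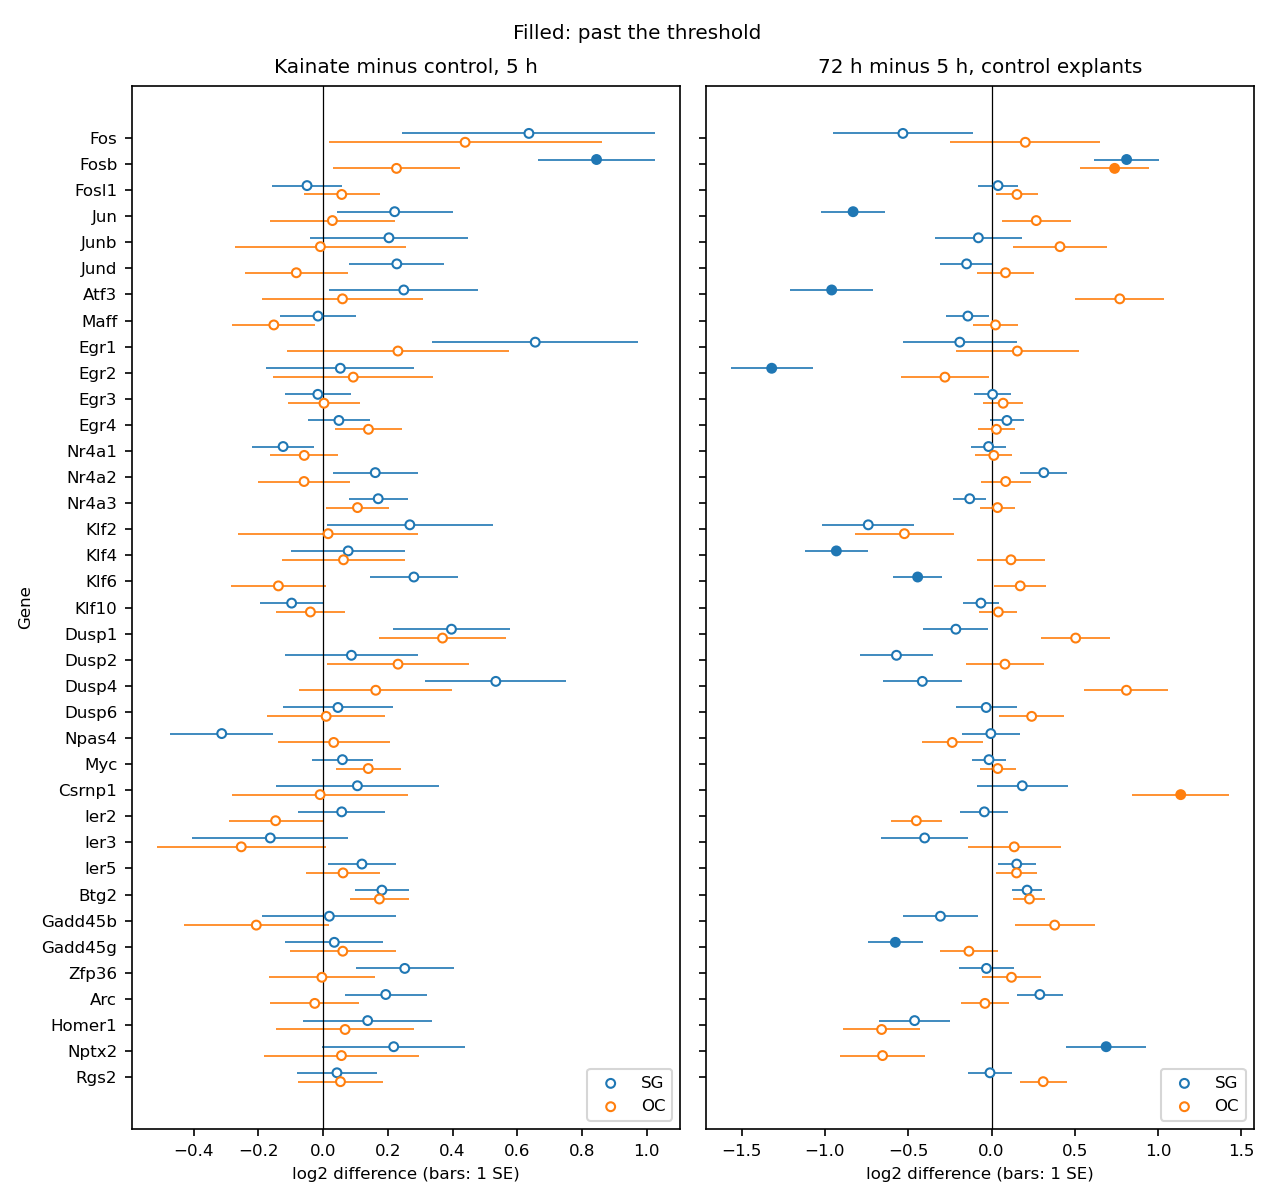
Log2 differences of the 37 members in SG (blue) and OC (orange) with bars of 1 SE, kainate minus control at 5 h on the left and 72 h minus 5 h in control explants on the right. Filled symbols are past the threshold of each comparison, 1 member on the left (Fosb in SG, 0.84), and on the right 8 in SG and 2 in OC.

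Time in culture was examined in untreated explants, to see how the levels moved from 5 h to 72 h. Of 37 members, 6 fell and 2 rose in SG at an adjusted p under 0.05 over all probes by limma, against 7.26% of all probes that fell and 8.18% that rose. The 6 that fell were Egr2, Atf3, Klf4, Jun, Gadd45g and Klf6, and the 2 that rose were Fosb and Nptx2. Over all members the median was −0.08 and 10 of 37 were above 0, against 51.4% of all probes with a median of 0.0054. In the KLF family and the phosphatases, 0 of 4 and 0 of 4 were above 0 (medians −0.59 and −0.31).

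Egr2, a zinc finger factor known for its role in Schwann cell myelination, had the largest fall. On the SG control arrays it read 10.92, 10.39, 10.72 and 11.18 at 5 h, 10.14 and 10.42 after 24 h, and 8.93, 9.93 and 9.59 after 72 h. The values at 72 h lay below all those at 5 h, and the difference was −1.32 (SE 0.25, adjusted p = 0.0002018), or 2.50-fold. Atf3, a stress factor induced in neurons with cut axons, read 9.83, 9.68, 9.96 and 9.57 at 5 h, 9.34 and 9.56 after 24 h, and 8.13, 9.12 and 9.15 after 72 h, the first of these not above background. It fell by 0.96 on the log2 scale (SE 0.25, adjusted p = 0.00619), and each value at 72 h was below each earlier one. Jun, the AP-1 subunit activated by JNK after nerve injury, read 9.87, 9.84, 9.99 and 9.88 at 5 h, 9.66 and 9.66 after 24 h, and 8.53, 9.34 and 9.32 after 72 h. It fell by 0.83 (SE 0.19, adjusted p = 0.002358), and its values at 72 h likewise lay below all earlier ones. In Atf3 and Jun the lowest of the 3 arrays at 72 h was replicate 2.

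Klf4, a zinc finger factor known to limit axon growth in retinal neurons, read 10.13, 10.80, 10.74 and 10.71 at 5 h, 10.24 and 10.48 after 24 h, and 9.56, 9.93 and 9.50 after 72 h. The difference was −0.93 (SE 0.19, adjusted p = 0.0005979), and the other 2 probes of the gene gave −0.72 and −0.33. Gadd45g, a stress sensor that activates a kinase upstream of p38 and JNK, read 12.16, 12.23, 12.60 and 12.40 at 5 h and 11.65, 11.93 and 11.72 at 72 h, a fall of 0.58 (SE 0.16, adjusted p = 0.01283). Klf6 read 12.29 to 12.48 at 5 h and 11.85, 12.03 and 11.94 at 72 h, a fall of 0.44 (SE 0.15, adjusted p = 0.03609). The groups of 5 h and 72 h did not overlap for Klf4, Gadd45g and Klf6. These members, like Egr2, Atf3 and Jun, were picked by adjusted p on the same arrays. Lack of overlap is thus no added support, and its share of all probes was not counted. Gadd45g no longer passed with batch as a block or without 5 h replicate 3 or 72 h replicate 4, and Klf6 without 5 h replicate 1, 2 or 3 or 72 h replicate 4.

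Fosb rose in the same SG controls, from no array above background at 5 h (7.57 to 8.10) to 2 of 3 at 72 h (9.13, 8.67 and 7.99), at least 1.41-fold (fitted difference 0.81, SE 0.19, adjusted p = 0.003179). Nptx2, a secreted pentraxin that clusters AMPA receptors at synapses, read 9.45, 9.91, 9.28 and 9.65 at 5 h, 11.00 and 10.32 after 24 h, and 10.38, 10.51 and 9.88 after 72 h. It had risen by 24 h (1.09, SE 0.27, adjusted p = 0.02375), the only member called from 5 h to 24 h where 1.95% of probes were. The higher of the 2 values at 24 h came from replicate 2, the array with the highest hair cell level, and without it the difference was 0.75 and did not pass. It did not pass either without 5 h replicate 1 or 3, under array-median scaling or with SG arrays alone. From 5 h to 72 h Nptx2 differed by 0.69 (SE 0.24, adjusted p = 0.04728), which passed in 8 of 15 alternatives and was lost under array-median scaling, with SG arrays alone, and without 5 h replicate 1, 3 or 4 or 72 h replicate 2 or 3 (adjusted p up to 0.279). From 24 h to 72 h no control member passed in SG, against 2.21% of probes.

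The fall rested partly on 1 array. Without SG 72 h CTRL replicate 2, Egr2 (−1.04), Klf4 (−0.88) and Homer1 (−0.69), a postsynaptic scaffold protein, passed, and Jun (−0.56), Atf3 (−0.62), Gadd45g (−0.52), Klf6 (−0.40), Fosb (0.55) and Nptx2 (0.63) kept their sign but did not. Within the purple batch, the 1 batch that held both times (1 array each), all 8 differences had the same sign. Its 72 h array is that same replicate 2, so this is not a separate check. Kainate explants of SG, which are other arrays, had 10 members that fell from 5 h to 72 h (7.38% of probes fell) and 0 that rose. These were Atf3 (−1.39), Egr2 (−1.36), Jun (−1.02), Dusp4 (−1.02), Klf4 (−0.92), Klf2 (−0.82), Gadd45g (−0.72), Klf6 (−0.70), Dusp2 (−0.64) and Dusp1 (−0.57). Each of the 6 that fell in control explants were among them. From 24 h to 72 h 7 fell after kainate (Klf2 −1.28, Egr2 −1.22, Atf3 −1.06, Dusp2 −1.01, Klf4 −0.74, Jun −0.68 and Rgs2, given as at least 1.03-fold because it was above background on no kainate array at 72 h), where 3.62% of probes fell.

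**Figure D4:**
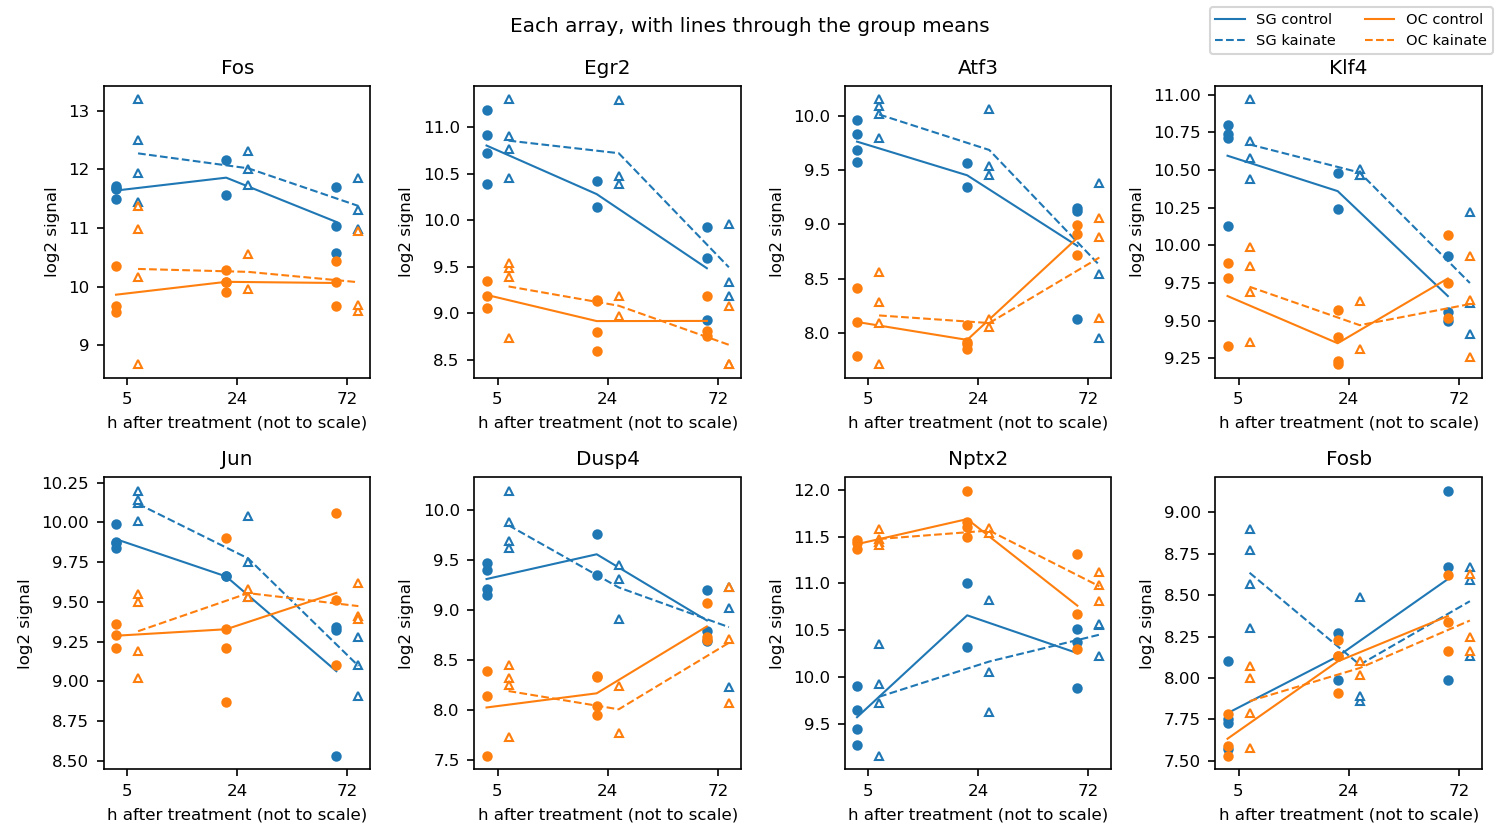
Log2 signal by hours after treatment for Fos, Egr2, Atf3, Klf4, Jun, Dusp4, Nptx2 and Fosb on each array of SG and OC, filled circles for control and open triangles for kainate explants. In SG control explants Egr2 declines from 10.39 to 11.18 at 5 h to 8.93 to 9.93 at 72 h, while in OC it stays between 8.59 and 9.35.

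In OC few members changed with time in control explants. No member passed from 5 h to 24 h (0.0623% of probes) or from 24 h to 72 h (0.809% of probes). From 5 h to 72 h 2 rose, against 1.94% of probes, and none fell (1.76% of probes). Csrnp1, a nuclear protein induced by axin, read 9.17, 9.91 and 9.14 at 5 h and 11.28, 10.38 and 9.96 at 72 h (1.14, SE 0.29, adjusted p = 0.01843). The groups did not overlap, which was not counted over all probes. Without 72 h replicate 2 the difference was 0.77 and did not pass. Nor did it pass without 5 h replicate 1 or 3, under array-median scaling or with the 2 groups alone. Fosb read 7.78, 7.59 and 7.53 at 5 h, none above background, and 8.34, 8.62 and 8.16 at 72 h, all above background, at least 1.22-fold (fitted 0.74, SE 0.21, adjusted p = 0.03792). This call was lost without any 1 of 5 of the 6 arrays, all but 72 h replicate 4 (adjusted p up to 0.207). Of the 37 members 29 were above 0, with a median of 0.12, against 48.5% of all probes with a median of −0.0056. After kainate Homer1 fell in OC by 0.81 on the log2 scale from 5 h to 72 h (adjusted p = 0.02229; 2.23% of probes fell), from 11.01, 11.02, 11.34 and 10.54 to 10.37, 10.25 and 9.90.

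The course from 5 h to 72 h was set against the other tissue in 1 interaction term, which 4.18% of probes passed at an adjusted p under 0.05. Atf3 was the member with the largest such difference, −1.73 (SE 0.36, adjusted p = 0.003252). In OC controls it read 8.41, 8.10 and 7.79 at 5 h, 7.90, 7.85, 7.92 and 8.07 at 24 h, none of the 24 h arrays above background, and 8.91, 8.99 and 8.72 at 72 h. Its OC level was thus at background at 24 h and above all earlier values at 72 h, at least 1.73-fold over 24 h, although neither OC step passed the test over time. Dusp4 differed by −1.23 (SE 0.35, adjusted p = 0.03452), Jun by −1.10 (SE 0.28, adjusted p = 0.01851), Klf4 by −1.05 (SE 0.28, adjusted p = 0.02344) and Nptx2 by 1.34 (SE 0.35, adjusted p = 0.01989). For the first 4 the change over time was lower in SG than in OC, and for Nptx2 it was higher. With each of 13 arrays left out in turn, Atf3 passed in all 13 (−1.91 to −1.39), Jun in 11, Klf4 and Nptx2 in 9 each and Dusp4 in 5, and without SG 72 h CTRL replicate 2 only Atf3 passed. Jun was also lost without OC 72 h CTRL replicate 3. Neuron markers fell in SG over the same time. Of 14, 10 fell with a median of −1.25, their summed signal went from 25200 to 33300 at 5 h to 14400 to 20700 at 72 h, and 7 of 14 were above background on no control array at 72 h against 2 at 5 h. Their part in the members' fall was not tested.

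The tissue comparison asked which fraction held which member. In control explants, averaged over the 3 times, 14 of 37 members were higher in SG and 3 higher in OC at an adjusted p under 0.05 by limma, against 11.1% and 12.0% of all probes. Under scaling to a common array median in place of the quantile step, the split was 10 and 6, with Egr1, Klf6, Dusp1 and Gadd45g no longer passing and Jund, Dusp6 and Homer1 lower in SG. Fos had the largest difference, with 9 SG control arrays at 10.58 to 12.16 (median 11.67) and 10 OC arrays at 9.56 to 10.44 (median 10.07). The tissues did not overlap, which was not counted over all probes, and the difference was 1.53 (SE 0.26, adjusted p = 2.321e-05), or 2.90-fold. Egr2 ranged from 8.93 to 11.18 in SG (median 10.39) and from 8.59 to 9.35 in OC (median 9.10), a difference of 1.18 (SE 0.15, adjusted p = 2.522e-07) with overlap at 72 h. Atf3 was above background on 8 of 9 SG arrays (8.13 to 9.96) and on 5 of 10 OC arrays (7.79 to 8.99), a difference of 1.04 (SE 0.15, adjusted p = 2.744e-06).

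Dusp4 was next, at 8.69 to 9.76 in SG and 7.54 to 9.07 in OC, where 7 of 10 arrays were above background (0.91, SE 0.15, adjusted p = 9.162e-06). Its other 2 probes gave 0.46 and 0.02. Ier3, a survival gene that lowers ERK dephosphorylation, was at 12.76 to 13.85 in SG and 12.14 to 12.99 in OC (0.75, SE 0.16, adjusted p = 0.0005627). Egr1 was at 12.78 to 13.79 in SG and 12.21 to 12.85 in OC (0.72, SE 0.21, adjusted p = 0.01094). The 2 tissues overlapped at the ends of the ranges of Dusp4, Ier3 and Egr1. The other members higher in SG were Junb, Klf4, Zfp36, Dusp1, Klf6, Maff, Nr4a2 and Gadd45g, by 0.67, 0.61, 0.58, 0.47, 0.46, 0.41, 0.36 and 0.33, the last not past the threshold without SG 24 h CTRL replicate 3. In Maff, Klf6 and Gadd45g the second probe of the gene differed by 0.01, 0.03 and 0.22.

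In the other direction stood Nptx2, Rgs2 and Btg2. Nptx2 was at 9.28 to 11.00 in SG and 10.30 to 11.99 in OC (−1.13, SE 0.15, adjusted p = 3.169e-07). Rgs2 was above background on none of 9 SG control arrays and on 8 of 10 OC arrays, at least 1.06-fold higher in OC (fitted −0.34, SE 0.08, adjusted p = 0.002087). Btg2 was above background on no array, so its −0.20 lies within the background.

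The tissue difference was not the same at each time. In the 5 h explants 12 members were higher in SG and 1 lower (13.7% of probes passed). In those of 24 h there were 11 and 1 (7.84%), or 9 and 1 without SG control replicate 2 (6.71%) and 3 and 0 without SG control replicate 3 (Atf3, Klf6 and Dusp4). The 5 h count of 13 was 8 without SG control replicate 3 or OC control replicate 2. In those of 72 h there were 0 and 2, Dusp6 (−0.58) and Rgs2 (at least 1.13-fold higher in OC), where 12.0% of probes passed. The Fos difference was 1.78, 1.78 and 1.04 at the 3 times, that of Egr2 1.61, 1.36 and 0.57, and that of Atf3 1.66, 1.52 and −0.07. Dusp4 went from 1.28 and 1.39 to 0.06, Klf4 from 0.93 and 1.01 to −0.12, and Nptx2 from −1.85 and −1.03 to −0.51. Without SG 24 h CTRL replicate 2 the 24 h differences were 2.08 for Fos, 1.63 for Atf3, 1.18 for Dusp4, 1.13 for Klf4 and −1.37 for Nptx2, and these and Egr2 still passed. The 2 members of 72 h each passed in at most 3 of 6 fits with 1 array left out. For Atf3, Dusp4, Klf4 and Nptx2 the interaction given above is the test of this narrowing between 5 h and 72 h, and for Fos and Egr2 it did not pass. After kainate 15 members were higher in SG and 3 lower (11.7% and 12.1% of probes), and 16 members passed in both treatments.

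Genes around the pathway were counted from lists of upstream kinases and factors, other bZIP partners and delayed response genes. In SG at 5 h after kainate, 0 of 31, 0 of 10 and 0 of 47 passed 0.005 by limma, with 1, 1 and 0 at an unadjusted p under 0.05, against 0.389% and 3.28% of all probes. In SG at 24 h, 1 delayed gene passed, Vgf (0.93, unadjusted limma p of 0.001591), a neuropeptide precursor, where 1.1% of probes passed. Without SG control replicate 2 it was 0.77 (unadjusted limma p of 0.03097) and no gene of these lists passed. From 5 h to 72 h in SG controls, where 8.18% of all probes rose and 7.26% fell, 1 upstream gene rose (Mef2d, 0.54) and 7 of 31 fell, among them Mef2c (−1.01), a calcium-responsive factor, and Camk2b (−0.77), a calcium/calmodulin kinase subunit. Of 10 bZIP partners 4 fell (Maf −1.64, Atf4 −0.73, Batf3 −0.68 and Jdp2 −0.66). Of 47 delayed genes 4 rose (Inhba 0.92, Bcl6 0.81, Sgk1 0.75 and Sik1 0.60) and 9 fell, with Nrn1 (−1.82) and Vgf (−1.46), both neuronal activity targets, among those that fell. In OC controls, where 1.94% of probes rose and 1.76% fell, the counts were 1 up and 0 down, 0 and 1 (Atf5 −0.79), and 2 and 1 (Bcl6 0.99, Cdkn1a 0.89 and Per2 −0.72). Between tissues, where 11.1% of probes were higher and 12.0% lower in SG, 6 of 10 bZIP partners were higher in SG (Cebpb 1.06, Nfil3 0.87, Maf 0.84 and Atf5 0.82 among them) and none lower, and of the 47 delayed genes 16 were higher and 5 lower, with Bdnf (−1.63) and Inhba (−1.78) higher in OC.

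The members were also more variable within groups than other genes. Among the 17 members above background on all arrays the median residual SD was 0.301 on the log2 scale, against 0.169 over 8636 probes above background on all arrays. Fos had the highest of these members, 0.60, at the 99.5th percentile of those probes, and Egr1 was at the 98.7th. The deviations ran with the explant number. Averaged over the 17 members, all 10 arrays of explants numbered 4 lay below their group means (−0.37 to −0.01, median −0.16), and 10 of 12 arrays numbered 3 lay above (median 0.11). All 7 arrays of the blue batch were numbered 4 and lay below, and 7 of 8 arrays of the pink batch lay above (median 0.20). The other arrays numbered 4, in the green and black batches, read −0.17, −0.07 and −0.30. Batch and explant number overlap to that extent, and their parts cannot be told apart for the blue arrays. The same holds for the 5 h kainate arrays, where each number had its own batch in both tissues. Some explants gave both an SG and an OC array here. In OC 24 h KA, with 2 arrays, the deviations of 0.17 and −0.17 mirror each other. The average was not taken over all probes. Array weights from limma use all probes and are low where an array lies far from its group. They were 0.583 to 0.87 on the blue arrays and 0.754 to 1.58 on the others.

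**Figure D5:**
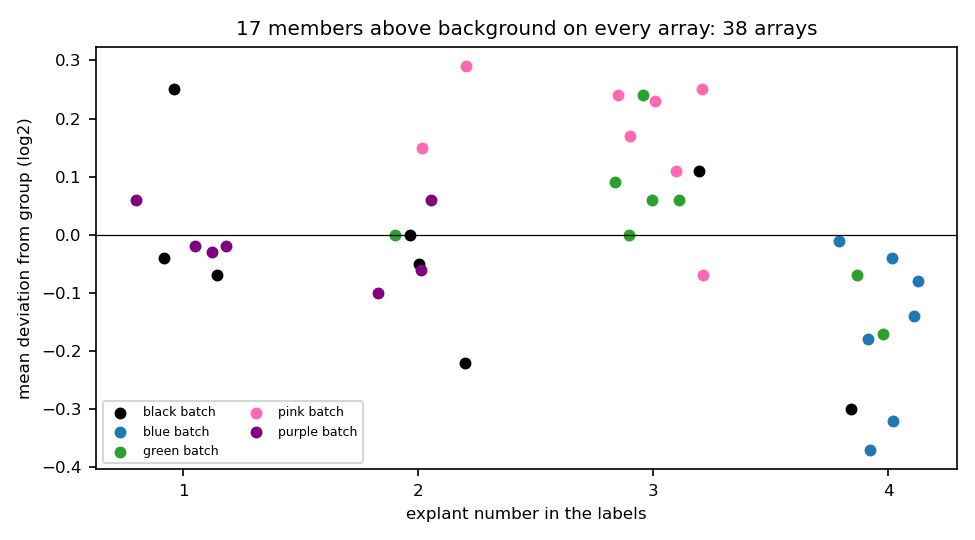
Mean deviation from the group mean, in log2 units, of the 17 members above background on all arrays, for each array by explant number and coloured by batch. All 10 arrays of number 4 lie below 0, down to −0.37, and 10 of 12 of number 3 lie above.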

How the data were processed

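RNA from 38 samples of mouse SG and OC was extracted, labelled as biotin cRNA and hybridised by the authors to Illumina MouseRef-8 bead arrays. The authors deposited log2 normalized values and raw probe intensity, each with a detection p-value per probe and array. The deposited log2 values were identical to the value table of the series, and every array held the same set of quantiles. The labels name limma with no version. Raw array medians ran from 191.1 to 283.7. Replicates are separate explants, and their number (2 to 4 a group) limits the precision. The platform annotation gave 1 gene for 23978 of 25697 probes and none for 1719.

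The 39 members and the lists were chosen with earlier results of these data known. Differences were fitted on the log2 values of all 25697 probes in R 4.3.3 using limma 3.58.1. The model held a mean for each of 12 groups over 38 arrays (26 residual degrees of freedom), and p-values were adjusted by Benjamini-Hochberg over all probes. Kainate differences were called at the study's unadjusted p under 0.005, and time and tissue differences at an adjusted p under 0.05. Values are printed per array for members past those thresholds, up to 8 each way for time and 6 each way for tissue. Fos, Egr1, Dusp1, Dusp4, Klf6, Klf2, Dusp2, Rgs2 and Ier2 for kainate, and Homer1, were given after their values were seen. Exact two-sided permutation tests were run on single members. The script was tested on simulated data. SG and OC arrays of one number, taken as 1 explant, deviated together in 16 of 16 pairs (r 0.203 to 0.704), so they are paired. Kainate and control arrays of one number, from different explants, did so in 7 of 7 pairs at 5 h (r 0.21 to 0.454), in 1 of 3 at 24 h and in 4 of 5 at 72 h. The batch of each array was read from the colour bar of the study's clustering plot. Alternatives were neqc on raw intensity, scaling to the array median, a filter on detection, all probes of a gene, replicate and batch blocks, fewer arrays in the fit, array weights, each array left out, and other thresholds. Leaving out single arrays for the tissue difference at each time and for differences between tissues or times was added after the data were seen.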

Additional observations from a re-analysis of the deposited data

Results flagged for a closer look

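In the groups of 4 arrays, the 4 readings of each member in a group were tested as a set. By Dixon's 95% criterion 1 reading stood apart from the other 3 in 5 of 148 sets (3.38%). Chance gives this in about 1 in 20 sets. Jund read 9.33 in SG 5 h KA replicate 1 against 9.79 to 9.84. Nr4a2 read 8.67 in SG 5 h CTRL replicate 3 against 8.35 to 8.38. Klf4 read 10.13 in SG 5 h CTRL replicate 1 against 10.71 to 10.80. Dusp6 read 12.36 in OC 24 h CTRL replicate 3 against 12.49 to 12.51. Myc read 7.77 in SG 5 h CTRL replicate 2 against 7.58 to 7.60, with no array above background.

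The change from 5 h to 72 h in control explants differed between SG and OC by limma's interaction term in 5 members, by −1.10 in Jun (adjusted p = 0.01851), −1.73 in Atf3 (adjusted p = 0.003252), −1.05 in Klf4 (adjusted p = 0.02344), −1.23 in Dusp4 (adjusted p = 0.03452) and 1.34 in Nptx2 (adjusted p = 0.01989). The Fosb kainate difference in SG was 0.89 lower at 24 h than at 5 h, a value of −0.89 with an unadjusted limma p of 0.004806 and an adjusted p of 0.5552.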

How the results depend on the processing

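Of 620 recomputed values of 29 named member differences none reversed and 40 no longer passed, 28 of them among the 405 with 1 array left out and 7 of 29 under array-median scaling. Fosb in SG at 5 h passed in all 17. The member counts moved as follows, and the cause was not tested. For kainate in SG at 5 h the count of 1 became 2 with batch as a block (Dusp1 added), 2 with the 2 groups alone (Dusp4), 6 at p under 0.05, and 1 to 2 without 1 array (Egr1 added without KA replicate 4). In SG at 24 h the count of 0 became 3 at p under 0.05 and 0 to 3 without 1 array, in SG at 72 h 0 to 1, and in OC at 24 h 1 with the 2 groups alone and 1 at p under 0.05 (Ier2). With the replicate block the count was 1 in SG at 5 h (4 pairs), where 187 of 25697 probes passed. It was 2 in SG at 72 h (Atf3 and Dusp2 lower, 2 pairs), where 267 probes passed. In OC at 5 h it was 1 (Fos, 3 pairs), where 67 probes passed. In SG at 24 h the block left 1 pair, so no count is given. The tissue count was 18 (Klf2 added), and no other count changed. At each time the kainate and control arrays of one number are different explants, and some of these pairs share a batch.

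For time in SG, 24 h against 5 h (1 called) gave 2 with batch, 2 with the 2 groups alone (Dusp6 added), and 0 under array-median scaling, with SG arrays alone, at adjusted p under 0.01 and in kainate explants, and 0 to 1 without 1 array. From 24 h to 72 h 0 became 2 with batch and 7 in kainate explants. From 5 h to 72 h 8 became 5 at adjusted p under 0.01 and 3 to 8 without 1 array. In OC, 24 h to 72 h (0) gave 1 with batch, 1 under array-median scaling, 2 with array weights, the 2 groups alone, OC arrays alone or detected probes, and 0 to 1 without 1 array. From 5 h to 72 h 2 became 4 with batch, the 2 groups alone or OC arrays alone, 1 under array-median scaling, 0 at adjusted p under 0.01, 1 in kainate explants and 0 to 2 without 1 array. The tissue count of 17 was 16 to 20 without 1 array. In fits added after seeing the data, leaving out 1 array moved the tissue count of 13 at 5 h to 8 to 12, that of 12 at 24 h to 3 to 14 and that of 2 at 72 h to 1 to 2. It moved the 5 members whose change from 5 h to 72 h differed between tissues to 1 to 5, and the 1 member whose kainate difference in SG differed between 24 h and 5 h to 0 to 1. The 8 members above background on no array have no measured level, and group sizes of 2 to 4 limit all kainate comparisons.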
